A study of Bos taurus with 12 samples.

Results

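The genes described here encode the nuclear subunits of the mitochondrial respiratory chain and of ATP synthase, measured in bovine endometrium, the inner lining of the uterus. Members were the non-control array probes whose gene name begins with NDUF, SDH, UQCR, COX4 to COX8 or ATP5, or whose description names one of these complexes. The rule found 76 of 15208 non-control probes and 74 genes of 14983 distinct names on the array, with the brightest probe standing for a gene that had several. Of the 76 probes, 71 were found by gene name and 5 by description only. There were 35 genes of complex I, 4 of complex II, 7 of complex III, 13 of complex IV and 15 of complex V, the ATP synthase.

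The cows were Japanese-Black, and all biopsies were taken on cycle day 15, with no treatment or genetic change named in the labels. Summer biopsies came from early September and autumn biopsies from the middle of November, over a pair of consecutive years, and the labels do not say which year a sample belongs to. In each season, 3 samples came from the uterine horn next to the ovary with the corpus luteum (CL), a gland that makes progesterone, and 3 from the opposite horn. Values from the first horn are labelled CL side and values from the other non-CL side. Each of the 12 samples was hybridised alone to a 1-colour Agilent array. The labels do not say whether the 3 samples of a group came from separate cows, so the p-values cover no more than the spread among these samples, which may be technical.

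The respiratory chain passes electrons from NADH (at complex I) and from succinate (at complex II) through ubiquinone and complex III to complex IV, where oxygen is reduced. Complexes I, III and IV pump protons out of the mitochondrial matrix, and ATP synthase uses the returning protons to make ATP. Most subunits are encoded in the nucleus, and a smaller set is encoded in mitochondrial DNA. The endometrium at this stage of the cycle is under progesterone and secretes the fluid that nourishes an early embryo.

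The probes behind the genes that the results turn on are identified here by their first 30 bases, 5′ to 3′, as the deposited array files give them. Each whole probe is 60 bases long, and no letters are capitalised because no motif is marked.
NDUFV2: ctctttgactgaaccaccaaaaggacctgg
NDUFS5: gaaactctacgtactaaaaacccctttgtg
MGC127892: agaaacaaatgagttaggctgcagaggact
COX7A1: tgcaggacccgaacaggcatcaataaatgt
COX7A2: tgagttctttggggatcaatatttattgac
COX7B: ctgttggcagagtcaccccaaaggaatgga
ATP5PB: gagttgtcctgtgaccacttttaaataagc
MGC127892 has no RefSeq symbol in the table used here, and the array file describes it as similar to the COX7A2-like subunit of complex IV. Its probe shared at most 6 bases in a row with the COX7A1 probe and at most 6 with the COX7A2 probe, so the sequences of the 3 probes differ. ATP5PB, a subunit of the peripheral stalk of ATP synthase, was spotted with 2 probe names that carry the same 60 bases. Between any 2 member probes of different genes, the longest shared run was 11 bases, between NDUFS6 and NDUFB1.

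Every array measured all 76 member probes well above background, so no member was missing in a group. A level below is the log2 of a spot's signal over the 75th percentile of its array, and a change is a difference between group means on that scale. Levels of different probes are not comparable, so each gene is compared only with itself. The 2 ATP5PB spots differed by a median of 0.03 log2 and by at most 0.08 log2 on 1 array. That shows the spot error of this 1 bright probe, with a mean level of 2.9, and the error was not measured for dimmer members. In a biopsy, fewer cells of a type and less RNA per cell cannot be told apart.

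The 75th percentile of signal lay between 3516 and 4418 on 11 arrays and at 2007 on the CL-side summer array of replicate 2, called the dim array below. That array's median correlation with the others was 0.928, against 0.979 to 0.986 for the other 11. The arrays were on 2 slides, of which the first held all 6 summer arrays and both autumn arrays of replicate 1, so season and slide overlap in part. Markers of the expected tissue were present, with EPCAM (epithelium), VIM and DCN (stroma) well above background on all 12 arrays. Cell type markers also differed between arrays. The median of 9 stromal markers, as a deviation from each gene's 12-array mean, had a range of 0.40 to 0.85 log2 over the CL-side autumn arrays and of -1.22 to 0.13 over the CL-side summer arrays. Medians of 7 epithelial markers lay between -0.59 and -0.23 in the former and between -0.25 and 1.5 in the latter, and the highest epithelial and the lowest stromal value both came from the dim array. The median of 5 smooth muscle markers ranged from -1.64 to 2.01 log2 over the 12 arrays, with arrays above 1 in every group. The median of 4 squamous epithelial markers lay between -0.04 and 1.97 log2 in CL-side summer and between -0.74 and -0.55 in CL-side autumn, without overlap. For 4 ciliated cell markers these ranges were 0.07 to 1.36 and -1.20 to 0.09, and for 7 leukocyte markers 0.05 to 0.68 and -0.24 to 0.16. Summer and autumn overlapped for these 3 lists in the non-CL horn. The part of the marker differences in the season and horn changes below was not tested.

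No member passed an adjusted p of 0.05 in limma in any of the 6 comparisons, where 0.0% of all kept probes passed as well. At an unadjusted p under 0.05, limma counted 0 members between the seasons on the CL side, where 9.92% of kept probes passed that mark. On the non-CL side it counted 1 member, NDUFV2, beside 1.12% of kept probes. Between the horns it counted 0 members in summer (1.41% of kept probes) and 0 in autumn (1.86%). For the difference between the season changes of the horns it counted 0 members (1.88%), and for the season change over both sides it counted 1, again NDUFV2 (4.02%). With the authors' deposited log2 values in place of the scanner signals, limma also passed 0 members and 0 probes at the adjusted threshold.

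Within these samples, the precision was enough to bound most changes. Like the p-values, the intervals below cover no more than the spread among these samples. The fit used 1 spread per gene for all 4 groups, while the members' median SD by group ran from 0.11 to 0.25 log2. The shares of kept probes given beside the members here and below cover all levels of brightness. Only 4626 of the 12404 kept probes lay within the 5th to 95th percentile of member brightness. Their median within-group SD was 0.22 log2, against 0.31 for all kept probes and 0.18 for members, so part of the contrast goes with brightness. The 95% confidence interval of the change lay within 2-fold in either direction for 73 of 74 members between the seasons on the CL side, against 63.0% of kept probes, and for 73 between the seasons on the non-CL side (74.3% of kept probes). It did so for 72 of 74 between the horns in summer (68.7%) and 72 in autumn (70.7%). The exceptions were COX6B2 in all 4 comparisons, COX6A2 between the horns in summer and MGC127994 between the horns in autumn. Within the tighter bound of 1.5-fold lay 53 of 74 members between the seasons on the CL side (28.7% of kept probes) and 65 on the non-CL side (37.1%). Between the horns, 59 lay within it in summer (34.2%) and 63 in autumn (34.9%). The sign of a change was less settled. With 1 array of the groups compared left out at a time, it turned at least once for 37 of 74 members in each season comparison and between the horns in autumn, and for 43 between the horns in summer.

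The chain as a whole differed little between summer and autumn on the CL side. The median change over the 74 genes was 0.05 log2, beside 0.02 over all kept probes, with 49 genes higher and 25 lower in summer. Higher values were also found for 53.0% of kept probes. Changes were under 0.25 log2 in size for 66 of 74 genes, against 52.4% of kept probes. By complex, the median change was 0.01 for complex I, 0.17 for complex II, 0.15 for complex III, 0.19 for complex IV and 0.03 for complex V. Leaving out the dim array gave -0.0015, 0.07, 0.16, 0.08 and -0.0043 in the same order.

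On the non-CL side the balance lay on the other side of 0, with 22 genes higher and 52 lower in summer and a median change of -0.05 log2. Of all kept probes, 49.9% were higher, and their median change was 0.00 log2 when rounded. Changes under 0.25 log2 in size were found for 71 of 74 genes, against 77.6% of kept probes. Complex IV had 2 genes higher and 11 lower with a median of -0.08, and complex I had 11 higher and 24 lower with a median of -0.05. Complex V had 4 higher and 11 lower, while complex III had 4 higher and 3 lower.

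**Figure D1:**
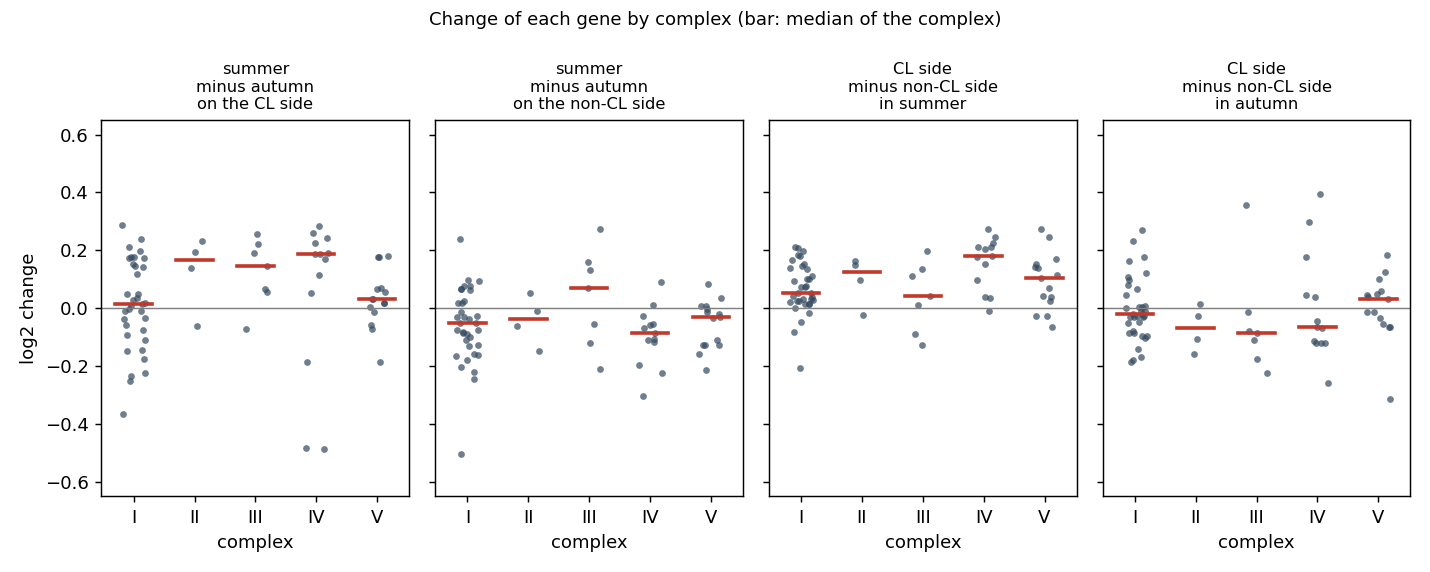
Log2 change of each of the 74 genes (points) by complex, in 4 comparisons, with the median of each complex as a bar. Nearly all points lie within 0.5 log2 of 0, complex IV has its median at 0.19 between the seasons on the CL side and at 0.18 between the horns in summer (0.08 and -0.0025 without the dim array), and the lowest point of the non-CL season comparison is NDUFV2.

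Between the horns, members were mostly higher on the CL side in summer and not in autumn. In summer 63 genes were higher on the CL side and 11 lower, with a median change of 0.10 log2, whereas 48.9% of kept probes were higher and their median was -0.01. Changes were under 0.25 log2 in size for 72 genes, against 64.8% of kept probes. Complex IV had 12 of 13 genes higher with a median of 0.18, and complex I had 31 of 35 higher with a median of 0.05. In autumn 29 genes were higher on the CL side and 45 lower, with a median of -0.03, beside a median of -0.04 over all kept probes, of which 42.6% were higher. Changes under 0.25 log2 in size were found for 68 genes, against 70.5% of kept probes. The season comparisons and the horn comparisons share arrays, so these medians are not independent of each other.

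The summer difference between horns depended on which CL-side summer arrays were kept. Without the dim array, 49 genes were higher and 25 lower on the CL side in summer, and the median was 0.05 log2. Complex IV was then split, with 6 genes higher, 7 lower and a median of -0.0025, while complex I kept a median of 0.05 with 25 genes higher and 10 lower. The season change on the CL side had a median of 0.01 log2 without the dim array, with 40 genes higher and 34 lower. Without CL-side summer replicate 1, 46 genes were higher and 28 lower between the horns in summer, the median was again 0.05, and complex IV kept 12 of 13 genes higher. Without CL-side summer replicate 3, in contrast, 67 genes were higher and 7 lower between the horns in summer, with a median of 0.15, and the season change on the CL side then had a median of 0.14. In autumn the sign of the median between the horns turned to 0.02 without CL-side autumn replicate 3, with 40 genes higher, and it was -0.11 without CL-side autumn replicate 2, with 17 higher.

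The difference between the season changes of the horns, taken as an interaction, had a median of 0.10 log2 over the members and 0.03 over all kept probes. It was above 0 for 57 genes and below 0 for 17, and above 0 for 53.9% of kept probes. It was under 0.25 log2 in size for 59 genes, against 55.6% of kept probes. By complex its median was 0.07 for complex I, 0.16 for complex II, 0.12 for complex III, 0.24 for complex IV and 0.07 for complex V. Leaving out 1 array at a time moved the median of all members between 0.06 and 0.19, and the value without the dim array was 0.06. With the horns of a number averaged, the season change over both sides had a median of 0.01 log2, with 39 genes higher and 35 lower, where 52.7% of kept probes were higher. It was under 0.25 log2 in size for 71 genes, against 69.0% of kept probes.

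On the CL side, the arrays of a group differed among themselves by more than these medians. On the CL side in summer, the median deviation of the 74 genes from their own 12-array means was 0.13 log2 on replicate 1, 0.11 on replicate 2 and -0.15 on replicate 3. On replicate 3 only 4 of 74 genes lay above their own mean, beside 53.7% of all kept probes on that array. On replicate 1, 61 of 74 genes lay above their mean, beside 46.6% of kept probes. The median over all kept probes was 0.02 log2 on replicate 3 and -0.02 on replicate 1. Some related lists lay on the same side as the members: on replicate 3, 9 of 45 mitochondrial ribosomal protein genes, 3 of 14 genes of ATP and phosphate exchange and 1 of 13 glycolysis genes lay above their own mean. On replicate 1 the counts were 32 of 45, 10 of 14 and 7 of 13, and 10 of 11 genes for electron carriers and ubiquinone synthesis lay above.

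On the CL side in autumn, the median deviation of the members was -0.07 on replicate 1, 0.13 on replicate 2 and -0.12 on replicate 3, beside medians of -0.05, -0.03 and -0.02 over all kept probes. On these arrays 25, 56 and 19 of 74 genes lay above their own mean, beside 43.0%, 46.4% and 46.8% of kept probes. On replicate 1 all kept probes were thus low as well. The non-CL arrays were closer together, between -0.07 and 0.00 in summer and between 0.00 and 0.03 in autumn. All 5 complexes lay below 0 on CL-side summer replicate 3, with medians between -0.18 and -0.14, and all 5 lay above 0 on CL-side summer replicate 1, with medians between 0.08 and 0.31.

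**Figure D2:**
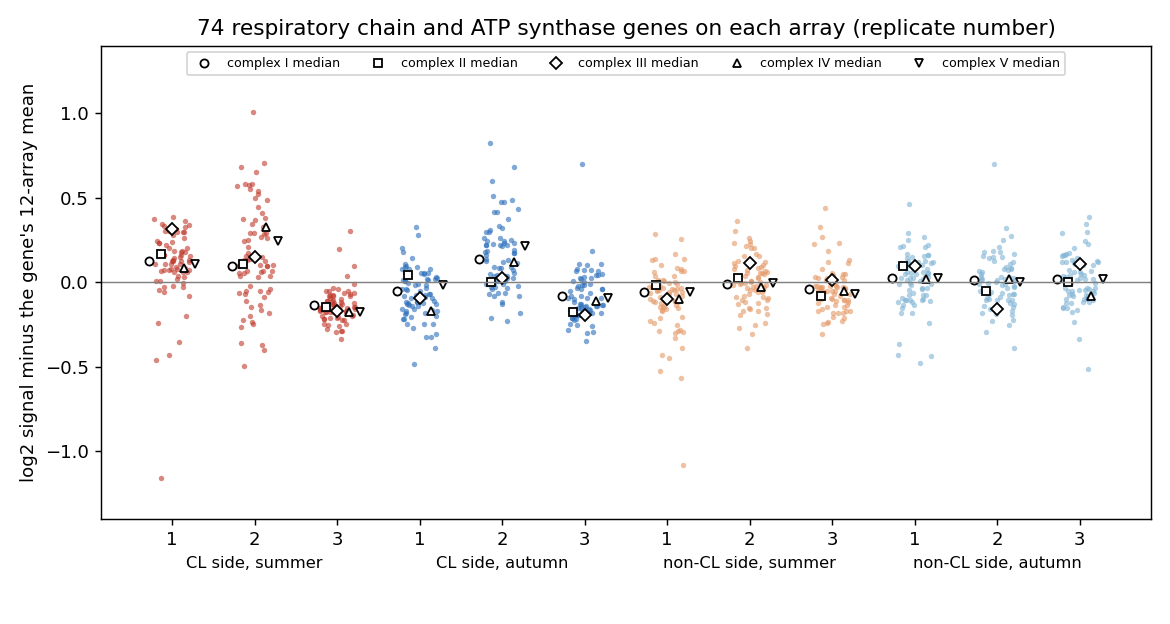
Deviation of each of the 74 genes from its own mean over the 12 arrays (points, log2), for each array by group and replicate number, with the median of each complex as an open symbol. The 3 CL-side summer arrays have medians of 0.13, 0.11 and -0.15 over all genes, and the 6 non-CL arrays stay between -0.07 and 0.03.

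The highest value of a gene over the 12 arrays came from the dim array for 27 of 74 genes, where 29.6% of all probes well above background on all arrays also had their highest value. CL-side summer replicate 1 held the highest value of 16 genes (21.6%, beside 6.68% of such probes), and CL-side autumn replicate 2 held it for 16 (21.6%, beside 10.9%). The 3 non-CL summer arrays and CL-side summer replicate 3 held the highest value of 0 members, beside 8.01%, 4.65%, 3.75% and 2.31% of such probes.

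The spread between the arrays of a group was small for these genes. Their median within-group SD was 0.18 log2, against 0.31 for all kept probes and 0.22 for kept probes of similar brightness. By group, the median SD of the members was 0.25 on the CL side in summer, 0.16 on the CL side in autumn, 0.11 on the non-CL side in summer and 0.12 on the non-CL side in autumn. Over all kept probes the median SD was 0.36, 0.23, 0.20 and 0.23 in the same order, so the CL side in summer also had the widest spread there.

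**Figure D3:**
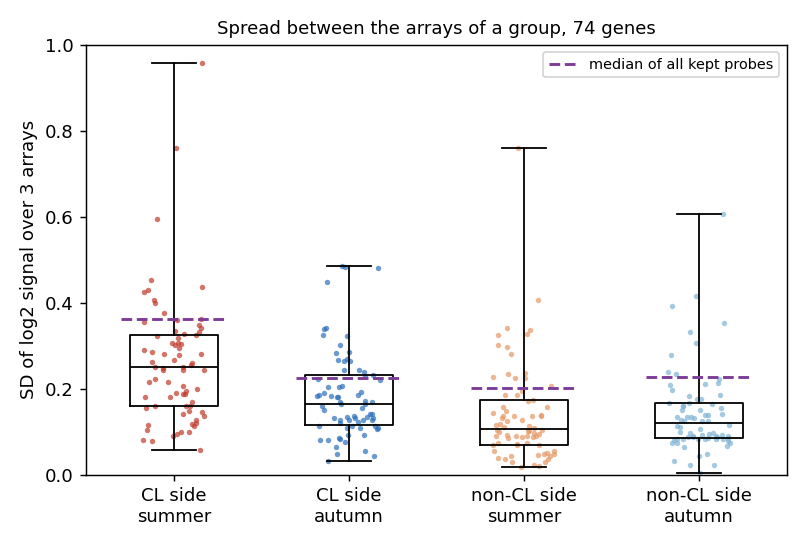
SD of the log2 signal over the 3 arrays of each group for the 74 genes (points), with boxes for the median and quartiles and whiskers to the lowest and highest gene. The dashed lines are the medians of all kept probes, and the members' median SD is 0.25 on the CL side in summer and 0.11 on the non-CL side in summer.

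Complex I, which oxidises NADH, had 7 genes of its catalytic core and 28 accessory genes among the members. NDUFV2 encodes a core subunit of the NADH-oxidising module that carries an iron-sulfur cluster. In the non-CL horn it stood at 2.08, 2.22 and 2.24 in summer and 2.93, 2.74 and 2.38 in autumn, so every summer array lay below every autumn array. The change was -0.50 ± 0.20 log2 (SE, n = 3 per group) with an unadjusted p of 0.028 and an adjusted p of 1.0 in limma, and its 95% interval ran from -0.94 to -0.07.

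On the CL side NDUFV2 stood at 2.65, 1.97 and 2.33 in summer and at 2.79, 2.71 and 2.54 in autumn. The lowest of the 6 values was that of the dim array, and replicate 1 of summer overlapped the autumn arrays. The change was -0.37 ± 0.20 log2, with an adjusted p of 0.51 in limma, and it was -0.19 ± 0.18 without the dim array. Over both sides NDUFV2 differed by -0.44 ± 0.16 log2, with an unadjusted p of 0.030 and an adjusted p of 0.89 in limma. That value was -0.61 ± 0.22 with the slide as a block, and over the alternatives it stayed between -0.61 and -0.34.

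NDUFS5, an accessory subunit of complex I on the intermembrane-space face, was the member with non-overlapping seasons in both horns. Its levels on the CL side were 3.51, 3.45 and 3.33 in summer and 3.56, 3.92 and 3.57 in autumn, and on the non-CL side 3.46, 3.20 and 3.33 in summer and 3.53, 3.67 and 3.52 in autumn. Every summer array thus lay below every autumn array of its own horn, although replicate 1 of summer (3.51) and replicate 1 of autumn (3.56) on the CL side were close. The changes were -0.25 ± 0.14 log2 on the CL side and -0.25 ± 0.14 log2 on the non-CL side, with adjusted p of 0.52 and 1.0 in limma. On the first slide alone, which keeps only 1 autumn array per horn, the change was -0.13 ± 0.22 on the CL side and -0.20 ± 0.22 on the non-CL side.

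Counted over all members, the 2 seasons did not overlap on the CL side for 0 genes higher in summer and 1 lower, NDUFS5, where 8.05% of kept probes were higher and 5.11% lower without overlap. On the non-CL side 1 gene was higher (2.75% of kept probes) and 9 were lower (3.5%) without overlap. The 9 were NDUFV2, NDUFS5, NDUFA2, NDUFA3 and NDUFB5 of complex I, UQCR10 of complex III, COX7B and MGC127892 of complex IV, and ATP5PB of complex V. The gene higher without overlap was COX6B1, a complex IV subunit, with a change of 0.09 ± 0.21 log2. Its lowest summer value, 2.6190, and its highest autumn value, 2.6187, were nearly equal. Apart from NDUFV2, each of these 10 genes had an unadjusted p above 0.05 in limma, from 0.12 to 0.68.

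Other complex I genes named by the smallest p were also within their spread. NDUFA5, an accessory subunit of the arm that faces the matrix, stood at 0.71, 0.72 and 0.23 on the CL side in summer and at 0.23, 0.46 and 0.37 on the CL side in autumn. On the non-CL side it stood at 0.40, 0.52 and 0.14 in summer and at 0.47, 0.63 and 0.51 in autumn. Its season change was thus 0.38 ± 0.24 log2 larger on the CL side, with an unadjusted p of 0.14 in limma. CL-side summer replicates 1 and 2 were the highest values of the gene.

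NDUFA4L2, a relative of NDUFA4, was the member of complex I with the widest spread, with a within-group SD of 0.34 log2. It stood at -3.07, -2.82 and -2.33 on the CL side in summer and at -2.54, -2.16 and -2.81 in autumn, and the season change differed between the horns by -0.48 ± 0.38 log2. The array descriptions place NDUFA4 and NDUFA4L2 in complex I, and NDUFA4 is now known as a subunit of complex IV. NDUFA4 differed by -0.04 log2 between the seasons on the CL side and by -0.13 on the non-CL side.

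Complex II, which oxidises succinate and is also an enzyme of the citric acid cycle, was represented by all 4 of its genes. SDHA, the flavoprotein subunit, stood at 3.22, 3.74 and 2.95 on the CL side in summer and at 3.17, 3.09 and 2.95 in autumn. The dim array held its highest value, and the change of 0.23 ± 0.19 log2 had an adjusted p of 0.64 in limma and was 0.014 without that array. Between the horns in summer SDHA differed by 0.15 ± 0.19, and by -0.07 without the dim array. SDHC, a membrane anchor, differed by 0.19 ± 0.17 on the CL side and by -0.03 with the slide as a block.

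Complex III transfers electrons from ubiquinol to cytochrome c. The core proteins were UQCRC1 and UQCRC2, and UQCRFS1 encodes the Rieske iron-sulfur protein. UQCRC1 differed by 0.25 ± 0.21 log2 between the seasons on the CL side, with 2.18, 2.60 and 1.72 in summer against 1.94, 2.07 and 1.73 in autumn. The summer arrays held both the highest and the lowest of the 6 values, and the change was 0.039 without the dim array, which held the highest. UQCR10, a small accessory subunit, differed between the horns in autumn without overlap, at 2.69, 2.77 and 2.85 on the CL side and 2.94, 2.95 and 3.09 on the non-CL side. That difference was -0.22 ± 0.16 log2, with an adjusted p of 1.0 in limma.

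Between the horns in autumn, 4 members were lower on the CL side without overlap and 0 higher, where 5.66% of kept probes were lower and 2.37% higher. Besides UQCR10 they were NDUFA5 and NDUFA6 of complex I and DMAC2L, listed in the array file as ATP5S, the coupling factor B of ATP synthase. DMAC2L stood at -0.76, -0.79 and -0.46 on the CL side and at -0.45, -0.24 and -0.39 on the non-CL side, so the nearest arrays differed by little. Its change of -0.31 ± 0.18 log2 had an unadjusted p of 0.12 in limma.

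Complex IV, which reduces oxygen, was represented by 13 nuclear genes. MGC127892, the COX7A2-like entry shown above, stood at 0.62, 0.89 and 0.49 on the CL side in summer and at 1.1, 1.65 and 0.69 in autumn. The autumn arrays were the more scattered, with an SD of 0.48 against 0.21 in summer, and replicate 3 of autumn lay within the summer range. The change was -0.48 ± 0.22 log2 with an unadjusted p of 0.056 and an adjusted p of 0.50 in limma, and it was -0.23 without CL-side autumn replicate 2, the highest array. In the non-CL horn it stood at 0.60, 0.63 and 0.66 in summer and 1.05, 0.84 and 0.68 in autumn. The seasons did not overlap there, though the nearest arrays, at 0.66 and 0.68, were close, and the change was -0.23 ± 0.22 log2.

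COX7B, a small membrane subunit, was the 1 member that did not overlap between the horns in summer, where it was higher on the CL side. Of kept probes, 1.92% were higher and 1.79% lower without overlap in that comparison. It stood at 2.14, 2.10 and 1.80 on the CL side and at 1.74, 1.78 and 1.77 on the non-CL side, so CL-side replicate 3 lay just above the non-CL arrays. The difference was 0.25 ± 0.14 log2 with an adjusted p of 0.98 in limma, and 0.20 ± 0.15 without the dim array. In autumn COX7B stood at 1.65, 2.01 and 1.87 on the CL side and at 1.95, 2.05 and 1.89 on the non-CL side, where the groups overlapped. Its season changes differed between the horns by 0.37 ± 0.20 log2, with an unadjusted p of 0.10 in limma.

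**Figure D4:**
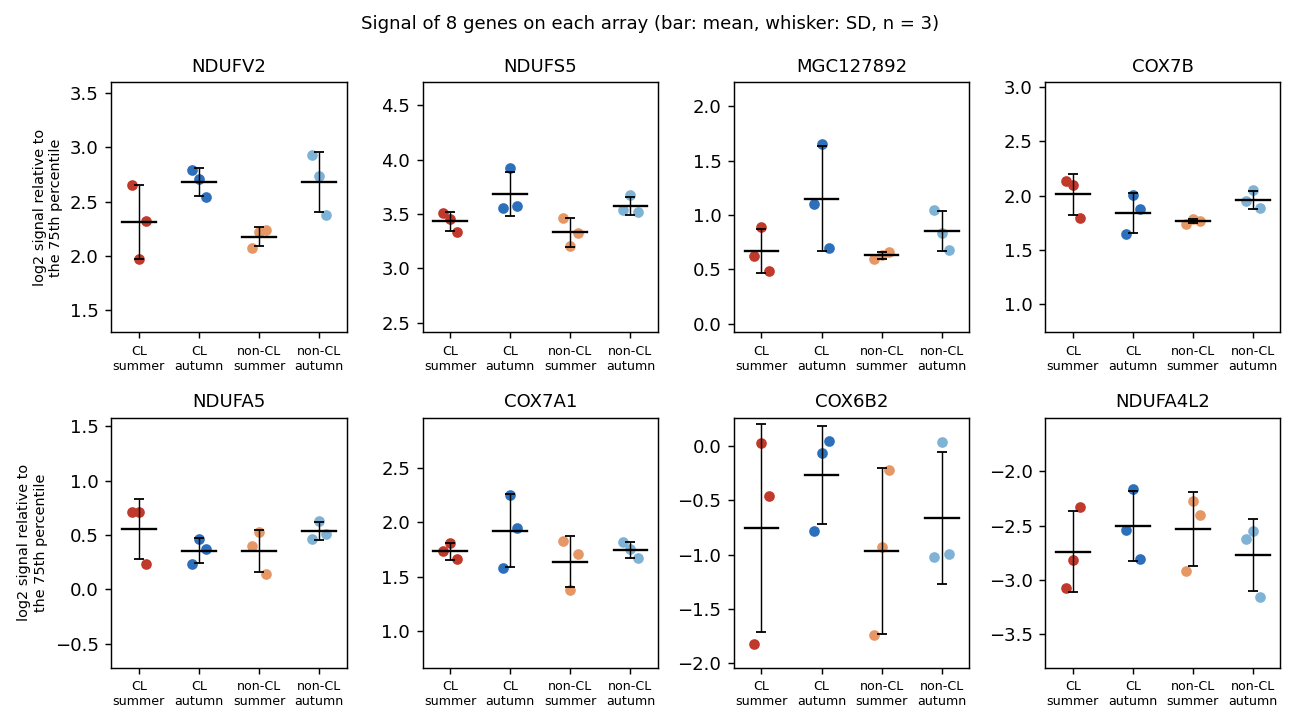
Log2 signal relative to the array's 75th percentile for 8 genes, with 3 arrays per group as points, the group mean as a bar and the SD as a whisker. Each panel spans 2.3 log2 units, NDUFV2 is lower in summer on every non-CL array, and COX6B2 has the widest spread.

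Complex IV has subunits with paralogs of known tissue preference, and the array held several pairs. COX7A1 and COX6A2 are known as the heart and skeletal muscle forms, COX7A2 and COX6A1 as the widely expressed forms, and COX6B2 as a testis form beside COX6B1. COX7A1 stood at 1.74, 1.82 and 1.66 on the CL side in summer and at 1.58, 2.25 and 1.95 in autumn, a change of -0.19 log2. On the non-CL side it stood at 1.83, 1.38 and 1.71 in summer and at 1.82, 1.75 and 1.67 in autumn, a change of -0.11 ± 0.19. The groups overlapped in both horns.

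COX7A2 differed by 0.23 log2 on the CL side (0.013 without autumn replicate 1) and by -0.07 on the non-CL side, with 1 autumn value missing in each horn after an outlier flag. COX6A1 differed by 0.05 and -0.06 log2, and COX6A2 by 0.11 and -0.12. COX6A2, a dim probe, had its highest value, -4.47, on the dim array and otherwise lay between -5.97 and -5.01. COX6B1 differed by 0.26 and 0.09 log2 and COX6B2 by -0.49 and -0.30, and a difference between the paralogs was not tested. The sign of COX6B2 was not stable: on the CL side its change was 0.046 without summer replicate 1, and on the non-CL side 0.085 without summer replicate 1, 0.046 without autumn replicate 2, 0.13 with the slide as a block and 0.060 on the first slide alone. Without the dim array, COX6B1 differed by 0.080 and COX6A2 by -0.32 on the CL side.

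COX6B2 was the most variable member, with a within-group SD of 0.72 log2 and a 3.64-fold range over the 12 arrays. It stood at -1.82, 0.02 and -0.47 on the CL side in summer and at -1.74, -0.93 and -0.22 on the non-CL side in summer. In autumn it stood at -0.78, -0.06 and 0.04 on the CL side and at -1.03, 0.03 and -1.0 on the non-CL side. Values near 0 and values below -1 occurred side by side, and in both horns the lowest summer value was that of replicate 1. The genes with the smallest within-group spread were NDUFA2, at 0.09, and NDUFA8, NDUFA3, NDUFAB1 and SDHB, at 0.11 each.

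In complex V, the F1 head carries the catalytic sites, the ring of c subunits turns in the membrane and a stalk holds the head in place. The 5 F1 genes had a median change of 0.07 log2 between the seasons on the CL side and 0.01 on the non-CL side. ATP5F1B, the catalytic beta subunit, stood at 1.64, 1.90 and 1.41 on the CL side in summer and at 1.49, 1.57 and 1.35 in autumn, a change of 0.18 ± 0.16 log2 with overlapping groups, and of 0.054 without the dim array. The 3 c-ring genes, ATP5MC1, ATP5MC2 and ATP5MC3, differed by 0.02, 0.02 and 0.06 log2 on the CL side and by -0.11, -0.13 and 0.00 on the non-CL side.

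ATP5PB gave a check of the measurement, since its 2 spots carry the same sequence. The brighter spot differed by -0.19 log2 on the CL side and -0.13 on the non-CL side, and the other by -0.22 and -0.12. In the non-CL horn the brighter spot stood at 2.79, 2.84 and 2.87 in summer and 3.01, 2.88 and 3.0 in autumn, where the nearest arrays differed by less than the median difference between the spots. NDUFAB1, the acyl carrier protein of complex I, had 2 probes that share at most 6 bases, which differed by 0.14 and 0.04 log2 on the CL side and by -0.03 and -0.10 on the non-CL side.

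A further 9 probes for subunits or regulators of the chain fell outside the naming rule, among them NDUFB11, NDUFA12, UQCRQ and CYC1 (cytochrome c1 of complex III). They were found after the array annotation had been read. They include a second probe of the member COX6A1, which differed by 0.04 log2 between the seasons on the CL side and -0.06 on the non-CL side. CYC1 and ATP5IF1, also among them, are counted again in the related lists below. Of these 9, 6 were higher in summer on the CL side and 2 on the non-CL side, with median changes of 0.08 and -0.06 log2. Between the horns in summer 7 were higher on the CL side, with a median of 0.09. None passed an adjusted p of 0.05 in limma, and none an unadjusted p of 0.05 in these comparisons.

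Related mitochondrial and metabolic lists were described in the same way. The 45 genes of mitochondrial ribosomal proteins had a median change of 0.04 log2 between the seasons on the CL side and -0.03 on the non-CL side, and none passed an adjusted p of 0.05. The 15 genes of pyruvate dehydrogenase and the citric acid cycle had medians of 0.19 and 0.00, with 12 of 15 higher in summer on the CL side. By array, their median deviation was 0.20, 0.20 and -0.06 in CL-side summer and -0.08, 0.01 and -0.18 in CL-side autumn, with overlap. IDH2, a mitochondrial isocitrate dehydrogenase, was the first of this list by p, with a change of 0.32 ± 0.16 log2 on the CL side and an adjusted p of 0.50 in limma. Between the horns in autumn it differed by -0.38 ± 0.16.

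Of 11 genes for electron carriers and ubiquinone synthesis, 8 had a higher summer level on the CL side, and the median change was 0.06 log2. COQ7, an enzyme of ubiquinone synthesis, had a mean level of -2.24 on the CL side in summer and -2.85 in autumn, a change of 0.61 ± 0.18 with an unadjusted p of 0.0064 and an adjusted p of 0.50 in limma. The 10 assembly factors split evenly on the CL side, with 5 higher and 5 lower. SCO1, a copper chaperone for complex IV, differed by 1.01 ± 0.39 log2 with an unadjusted p of 0.027 and an adjusted p of 0.50 in limma.

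The 14 genes of ATP and phosphate exchange had a median change of 0.13 log2 on the CL side, and the 8 regulators of mitochondrial DNA and biogenesis had one of -0.05. By array, the exchange genes deviated by 0.13, 0.13 and -0.21 in CL-side summer and 0.07, 0.10 and -0.25 in CL-side autumn, with overlap. PPARGC1A, a coactivator of mitochondrial biogenesis, differed by -0.41 ± 0.27 log2 on the CL side. The 13 glycolysis genes had a median of -0.27 on the CL side, with 6 higher and 7 lower in summer, and 0.00 on the non-CL side. By array, their median deviation was 0.01, 0.05 and -0.22 in CL-side summer and 0.22, 0.48 and -0.29 in CL-side autumn, with overlap. Values without the dim array are not given for the related lists or their genes. PFKM, a phosphofructokinase, differed by -0.56 ± 0.23 log2 on the CL side with an adjusted p of 0.50 in limma, and LDHB, a lactate dehydrogenase subunit, by -0.38 ± 0.17. No gene of the 7 lists passed an adjusted p of 0.05 in any comparison in limma, and between the seasons on the CL side 5 of their 116 entries (4.31%) passed an unadjusted p of 0.05, below the 9.92% of kept probes.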

How the data were processed

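Scanner output of 12 one-colour Agilent arrays was used. Per the file headers, spots were read with Feature Extraction 9.5.1.1 (9.5 in the submitters' processing notes), and the processed spot intensity was background-subtracted by the authors. The authors' deposited log2 values for the same arrays served as an alternative. Signals were divided by the array's 75th percentile over non-control probes, floored at -7.28 and put on the log2 scale, and 466 outlier-flagged values were left out. A probe was kept (12404 in all) where every array of 1 or more groups measured it well above background.

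Groups were compared with limma 3.58.1 in R 4.3.3 (lmFit, eBayes), with 1 mean for each of the 4 groups (8 residual degrees of freedom), two-sided, adjusted by Benjamini-Hochberg over all kept probes. For the season change over both sides, same-numbered horns were averaged first (4 residual degrees of freedom). The fit was tested on simulated data. Same-numbered arrays deviated together, with correlations over probes of 0.139 to 0.500 between the horns of a season and 0.090 to 0.345 between seasons. Arrays of different numbers were not compared, so these values do not show that the horns were paired. The number, taken from the labels' titles, was tried as a block. Members and lists were chosen with earlier results of these data known. Named were, in each comparison, the 4 members of complexes I, IV and V and 2 of complexes II and III with the smallest p, 5 each for the other 2 comparisons, the paralogs, and 2 of each list. Promoter and protein sequences were not used here.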

Additional observations from a re-analysis of the deposited data

How the results depend on the processing

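No member passed an adjusted p of 0.05 in limma under any alternative run: quantile or median scaling, normexp background, the authors' values, no filter, a filter on all 12 arrays, no floor, the slide as a block, the first slide alone, replicate blocks and each array left out. Over all probes the number past it stayed at 0, except for 1 between the seasons on the non-CL side on the first slide alone, and with 1 array left out it ran from 0 to 7 (seasons, CL side), 0 to 1 (horns, summer), 0 to 6 (horns, autumn) and 0 to 1 (difference between season changes). The 7 and the 6 came without CL-side autumn replicate 3, and the season count on the CL side was 4 without CL-side summer replicate 3 and 2 without CL-side summer replicate 1. With 1 array left out, the members' median change ran from 0.01 to 0.14 (seasons, CL side), -0.07 to -0.03 (seasons, non-CL side), 0.05 to 0.15 (horns, summer), -0.11 to 0.02 (horns, autumn) and -0.03 to 0.05 (season over both sides). On the first slide alone it was 0.12 (seasons, CL side), -0.09 (seasons, non-CL side) and -0.11 (horns, autumn), and with quantile normalization it was 0.02, -0.06 and -0.01 in the same order and 0.05 between the horns in summer.

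The replicate number as a block left every call as it was, with 0 probes past the threshold, and left the members' median season change on the non-CL side at -0.05. With it, COX7A2 between the horns in autumn became 0.072, where 2 missing values leave only 1 complete pair.

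Over all 74 members, leaving out 1 array turned the sign at least once for 37 to 43 genes, depending on the comparison. Besides COX7A2, genes named by the smallest p in a comparison turned sign in it as follows, and the cause was not tested. SDHC between the seasons on the CL side was -0.029 with the slide as a block and -0.00795 on the first slide. On the non-CL side, COX7A1 was 0.030 and COX6B2 0.13 with the slide as a block, and COX6B2 was 0.060 on the first slide. COX7A1 between the horns in autumn was -0.24 on the first slide. With 1 array left out at a time, the season change on the non-CL side ran from -0.20 to 0.023 for COX7A1, from -0.67 to 0.085 for COX6B2, from -0.27 to 0.013 for ATP5F1D and from -0.13 to 0.060 for SDHC. Between the horns in summer it ran from -0.0035 to 0.33 for ATP5MC1 and from -0.067 to 0.32 for SDHA, each lowest without the dim array. The number of arrays, 3 per group, limits every value.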

Other observations

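Probe base composition moved with the deviations on several arrays, the dim one among them. Over the 74 member probes, the deviation on CL-side summer replicate 2 correlated with the probe's GC share at r = 0.49, and over the 12404 kept probes at r = 0.28. Over the kept probes the correlation was as large in size on non-CL summer replicate 1 (r = -0.31), and it was -0.24 on CL-side summer replicate 1. These are descriptions across probes of an array, which share its labelling and hybridisation. On CL-side summer replicate 2, the 21 member probes with at least 50% GC had a median deviation of 0.38 log2, and the 53 others 0.07. Over all kept probes of CL-side summer replicate 2, the same medians were 0.54 and -0.08. On non-CL autumn replicate 3 the correlation over members was -0.48, and on CL-side summer replicate 1 it was -0.35, while on the other 9 arrays it lay between -0.25 and 0.23. Its part in the differences between groups was not tested.

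On CL-side summer replicate 3, where the members were low, their deviation correlated with GC share at r = -0.11. The median deviation there was -0.18 for the member probes with at least 50% GC and -0.14 for the others. The part of probe composition in these low values was not tested.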
